A study of Mus musculus with 12 samples.

Results

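A set of 10 genes that restrain or read out signaling through the kinase ERK was followed in the RNA of leukemic stem and progenitor cells from mice with a CML-like disease. They were taken as a fixed list of symbols from the deposited expression files, namely the phosphatases Dusp1, Dusp2, Dusp4, Dusp5 and Dusp6, the Sprouty genes Spry1 and Spry2, the Sprouty-related genes Spred1 and Spred2, and the transcription factor Etv5. They are 10 of 46102 genes, and none of them was listed as several numbered copies. All 10 passed the filter on low values, of at least 1 RPKM in at least 3 libraries, which 10072 genes passed.

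RNA-seq libraries were made from 100 sorted cells each. All cells were BCR-ABL1+ KSL cells (c-Kit+, Sca1+ and lineage-negative) with CD27 on their surface, taken from bone marrow and spleen. The donors were G0M mice, whose blood cells express a fluorescent G0 marker from the Rosa26 locus once Vav1-Cre has acted. Donor marrow, taken after 5FU, received BCR-ABL1 by retrovirus and was transplanted into wild-type C57BL/6 mice after lethal irradiation, in which the disease arose. DP cells carried G0M and SP cells did not, both from mice given vehicle, and IMDP and IMSP cells were the same populations from mice given imatinib, a BCR-ABL1 kinase inhibitor, by oral gavage daily. Each of the 4 groups had 3 libraries. BCR-ABL1 was thus overexpressed from a retrovirus in all groups, no group held cells without it, and the labels do not say whether the 3 libraries of a group came from separate mice, so the p values measure the spread between libraries.

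ERK is the last kinase of the RAS, RAF and MEK cascade, which growth factor receptors and BCR-ABL1 both feed. Active ERK induces genes whose products act back on the cascade. Dual-specificity phosphatases remove phosphates from ERK and related kinases, Sprouty and Spred proteins act upstream at RAS and RAF, and the ETS factor Etv5 is a commonly used transcriptional target. Levels of these RNAs are therefore often read as an output of the pathway, although several also answer to other signals.

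The start regions of Dusp5 and Dusp1 are shown because they were the members with the highest mean levels and the ones whose sequence held a match to the motifs searched. The sequences are those of RefSeq on GRCm38.p6, read 5′ to 3′ on the gene's strand from 250 to 51 bases upstream of the start, at chr19:53528895-53529094 on the plus strand for Dusp5 and chr17:26508523-26508722 on the minus strand for Dusp1. Capitals mark the motif matches.
Dusp5: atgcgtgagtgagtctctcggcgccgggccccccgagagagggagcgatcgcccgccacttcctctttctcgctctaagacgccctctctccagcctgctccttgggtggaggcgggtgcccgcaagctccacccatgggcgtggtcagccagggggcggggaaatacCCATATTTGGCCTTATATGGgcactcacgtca
Dusp1: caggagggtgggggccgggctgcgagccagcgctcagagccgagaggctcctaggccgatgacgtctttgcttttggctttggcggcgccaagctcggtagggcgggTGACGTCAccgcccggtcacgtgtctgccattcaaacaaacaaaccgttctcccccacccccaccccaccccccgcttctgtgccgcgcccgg
The capitals in Dusp5 are a pair of adjoining CArG boxes, the sequence bound by serum response factor, at 82 to 73 and 72 to 63 bases upstream. Those in Dusp1 are a cyclic AMP response element (TGACGTCA), at 143 to 136 bases upstream. Both strands of the 250 bases before the start were searched. A CArG box was found in 1.47% and the response element in 1.55% of the 32851 promoters searched in the same way. The ETS core CCGGAAG (6.91% of promoters) and the AP-1 site TGANTCA (6.75%) were found in none of the members' windows, and the windows of Dusp2, Dusp6, Spry1, Spry2, Spred1, Spred2 and Etv5 held none of the 4 motifs. Of the members, 9 had an entry among these promoters, and Dusp4 had none. A match is a property of the letters and was not measured as binding.

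The library totals were estimated from reads recovered from the RPKM steps and the GENCODE exon lengths of genes with 1 transcript. They came to 11.4 to 20.6 M reads, and by this estimate 25.2% to 36.1% of each total fell on the listed features. The labelled cell type was checked on Kit, Cd27, Ly6a (the gene of Sca1), Mki67 and Cdkn1b. Kit, Cd27 and Ly6a were above 0 in all groups, which shows only that they were detected. Ly6a averaged 11.7 RPKM for DP, 4.55 for SP, 19.0 for IMDP and 6.63 for IMSP cells. Mki67, a proliferation gene, averaged 14.7 ± 5.70 RPKM (SD, n = 3) for DP and 54.2 ± 3.42 for SP cells. Cdkn1b, from whose product the G0 marker was built, did not separate the populations. Its means were 8.017 RPKM for DP and 8.015 for SP, and 6.66 for IMDP and 7.55 for IMSP cells. Libraries carried numbers, with 1 to 6 given to imatinib and 7 to 12 to vehicle, so treatment and library number cannot be told apart. Each pair of neighbouring numbers (1 and 2, 3 and 4, and so on) held a G0M+ and a G0M- library of the same treatment.

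RPKM divides reads by gene length and library total. The members spanned a wide range on this scale, from a mean over the 12 libraries of 29.4 RPKM for Dusp1 and 20.0 for Dusp5 to 1.39 for Dusp4. Dusp2 averaged 10.7, Dusp6 8.91, Spred1 7.77, Spred2 3.91, Etv5 2.98, Spry2 2.71 and Spry1 2.55 RPKM. Dusp1 thus stood above 94.6% of the tested genes, and Dusp4 above 12.3%. The read counts recovered from the RPKM steps put the effective length of Spred2 at 33.7 kb, against 4.62 kb of exons in GENCODE M21, so its place in this order is low for its 785 to 3514 reads per library. That of Dusp5 was 1.16 kb, which equals its coding length, against 2.47 kb of exons. Which sequence beyond the annotated exons was counted for Spred2 is not given in the sources used here. Each length is the same in every library, and as a divisor it enters the comparisons through the added 0.1 RPKM, the filter and the variance trend. The differences of Spred2 are those of the counted sequence, and the share of its reads that fell on annotated exons is not given. The treatment difference of Spred2 given below was -0.951 with 0.01 RPKM added and -0.748 with 1 RPKM added (log2).

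**Figure D1:**
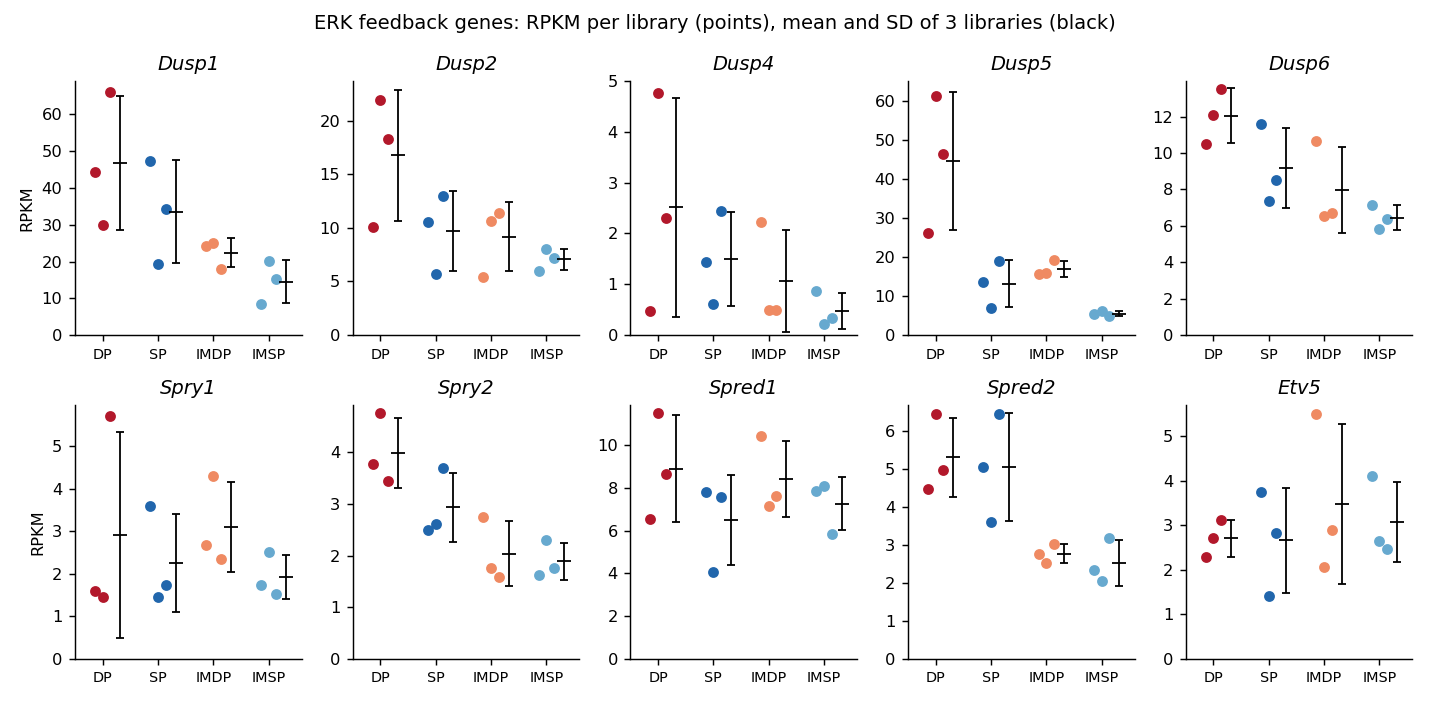
RPKM of the 10 ERK feedback genes (vertical axes, each starting at 0) in the 3 libraries of DP, SP, IMDP and IMSP cells, with the mean and SD of each group in black. Dusp5 lies between 26.1 and 61.2 RPKM in DP and between 4.94 and 6.09 in IMSP cells, and the 6 imatinib libraries of Spred2 all lie below its 6 vehicle libraries.

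Dusp5 was the member that separated the populations. It encodes a nuclear phosphatase specific for ERK and lies on the plus strand of chromosome 19 (53529109 to 53542431). Its level was 26.1, 61.2 and 46.3 RPKM in the DP libraries 1 to 3, and 13.5, 7.04 and 19.0 RPKM in the SP libraries. In imatinib-treated mice it was 15.7, 15.8 and 19.3 RPKM in IMDP and 5.47, 6.09 and 4.94 RPKM in IMSP cells. Every G0M+ library was above every G0M- library of the same treatment, as was so for 9.68% of tested genes under vehicle and 6.21% under imatinib. The group means were 44.5 ± 17.6 (SD, n = 3) for DP and 13.2 ± 5.97 for SP libraries, and 17.0 ± 2.04 in IMDP and 5.50 ± 0.575 in IMSP libraries. IMDP and SP cells, which stand next to each other in this order, had overlapping values.

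Fold changes were tested with limma on log2(RPKM + 0.1), a scale that understates the change of low genes, with Benjamini-Hochberg adjustment over the 10072 tested genes. Dusp5 was 3.42-fold higher in DP than in SP cells (log2 fold change 1.78, SE 0.34, adjusted p = 0.0160). It was 3.04-fold higher in IMDP than in IMSP cells (log2 fold change 1.61, SE 0.34, adjusted p = 0.00807). Averaged over treatments its log2 difference was 1.69 (SE 0.24, adjusted p = 0.000665). The median of all tested genes was -0.02 in DP against SP, -0.25 in IMDP against IMSP and -0.13 in the average, and counted from it the Dusp5 values were 1.79, 1.86 and 1.83. Fewer cells with a transcript and less RNA of it per cell cannot be told apart in such pools. Dusp5 was higher in the G0M+ library in 6 of 6 neighbouring pairs of library numbers, by 1.36 to 1.94 on the log2 scale, as were 11.3% of all tested genes.

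The call in DP against SP depended on the libraries and on the spread taken from the other groups. The adjusted p was 0.105 when DP and SP were fitted alone, and 0.0810, 0.0785, 0.0523 and 0.0514 without DP libraries 2 and 3 and SP libraries 1 and 2, with log2 fold changes of 1.39 to 2.12 over all libraries left out. With neighbouring library numbers as a block, Dusp5 was called at an adjusted p of 0.000384 in limma, where 4.17% of tested genes were called higher. An RNA annotated on the opposite strand, AC137853.2, overlaps Dusp5, and the library kit does not keep the strand.

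Dusp5 was the only one of the 10 members called in either population comparison, in which 0.288% of tested genes were called higher in DP than in SP and 2.37% higher in IMDP than in IMSP cells. Averaged over treatments it was again 1 of 10, against 5.32% of tested genes called higher. All 10 members had a difference above 0 in both comparisons, in which 48.1% and 31.0% of tested genes did. Leaving out 1 library turned this direction for Dusp4, Spry1, Spred2 and Etv5 in DP against SP and for Spry2 and Etv5 in IMDP against IMSP cells. The median log2 difference of the members was 0.43 in DP against SP, 0.29 in IMDP against IMSP and 0.38 on average, beside the medians of all tested genes given above. With neighbouring library numbers as a block, 7 members were called higher on average (Dusp1, Dusp2, Dusp4, Dusp5, Dusp6, Spry1 and Spred1), against 13.4% of tested genes. With that block Dusp2 was also called higher in DP than in SP cells (adjusted p = 0.0133 in limma, 4.17% of tested genes called higher), and Dusp4 (adjusted p = 0.0427) and Spry1 (adjusted p = 0.0183) in IMDP than in IMSP cells (8.22%). The labels do not say what the library number stands for.

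**Figure D2:**
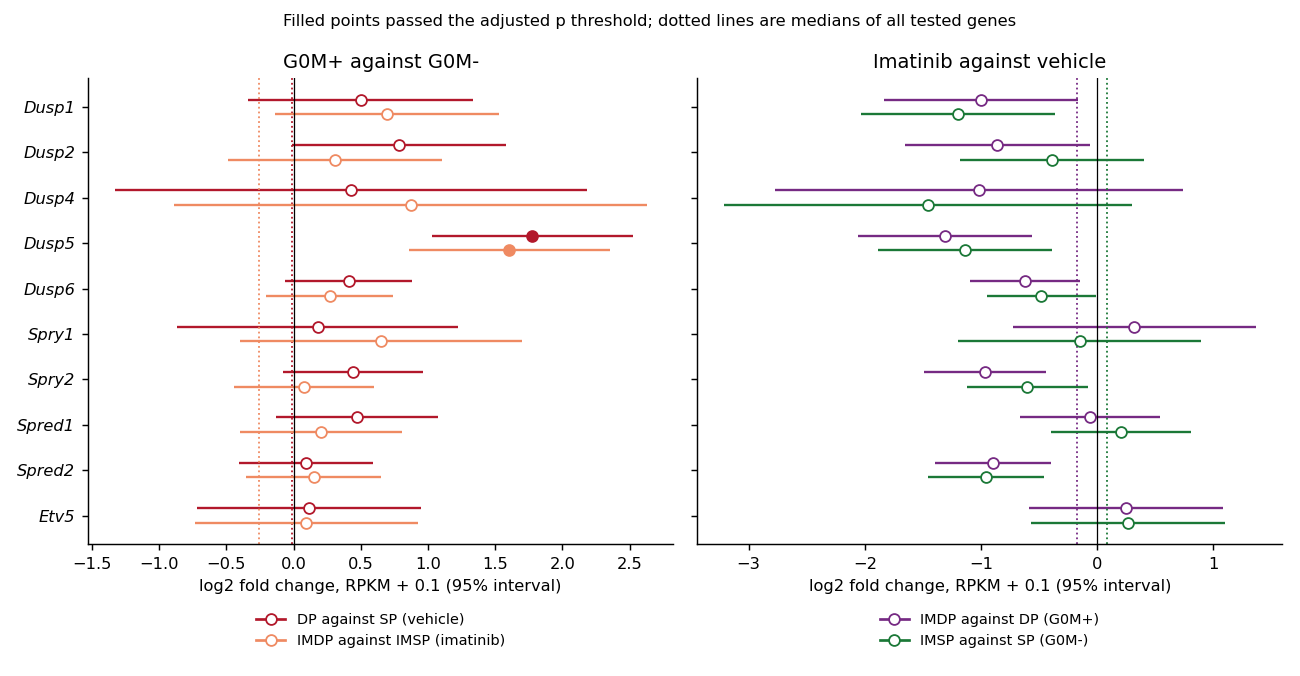
Log2 fold changes of RPKM + 0.1 (horizontal axes) with 95% intervals for the 10 genes, for G0M+ against G0M- cells on the left and imatinib against vehicle on the right, with filled points for adjusted p values under 0.05 and dotted lines at the median of all tested genes. Dusp5 is the gene with filled points, at 1.78 and 1.61 on the left, and no gene has a filled point on the right.

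The other phosphatases that act in the nucleus and are induced early were Dusp1, Dusp2 and Dusp4. Dusp1, which also acts on the stress kinases p38 and JNK and lies on the minus strand of chromosome 17 (26505590 to 26562128), reached 44.4, 30.0 and 66.2 RPKM in DP and 47.3, 19.2 and 34.2 in SP libraries, and 24.2, 25.1 and 18.0 in IMDP and 8.41, 20.0 and 15.2 in IMSP libraries. The populations overlapped under both treatments, whereas each IMDP library was lower than any DP library. Its log2 difference was 0.60 (SE 0.27, adjusted p = 0.118) between the populations and -1.10 (SE 0.27, adjusted p = 0.0724) between the treatments, so neither passed. This span of Dusp1 is that of GENCODE, which overlaps Ergic1 on the opposite strand. It reaches further upstream than the RefSeq start region shown above (26508523 to 26508722). The effective length of Dusp1 was 1.94 kb, against 3.31 kb of exons in GENCODE. Whether the counted sequence overlaps Ergic1 is not given.

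Dusp2, a phosphatase found mainly in blood cells (chromosome 2, 127336159 to 127338376), lay between 10.1 and 21.9 RPKM in DP and 5.68 and 13.0 in SP libraries, and 5.45 and 11.3 in IMDP and 5.98 and 7.99 in IMSP libraries. Neighbouring groups in this order overlapped, and its log2 differences of 0.55 (SE 0.26, adjusted p = 0.130) between populations and -0.63 (SE 0.26, adjusted p = 0.235) between treatments did not pass. Dusp4 (chromosome 8, 34807297 to 34819894) was near the floor of detection, with 6 to 181 reads and at least 1 RPKM in 5 libraries. It was 0.47, 4.77 and 2.31 RPKM in DP and 1.44, 0.61 and 2.45 in SP libraries, and 2.23, 0.50 and 0.49 in IMDP and 0.87, 0.22 and 0.34 in IMSP libraries. The range within DP cells alone exceeded the differences between the group means, and the 95% interval of its log2 difference between treatments reached from -2.48 to 0.01.

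Summed over Dusp1, Dusp2, Dusp4 and Dusp5, the nuclear phosphatases ranged from 81.0 to 133 RPKM in DP and from 32.6 to 72.8 in SP libraries, while IMDP libraries gave 47.6 to 52.1 and IMSP libraries 20.7 to 34.3. Dusp1 and Dusp5 made up most of these sums. The lowest DP library was thus above the highest SP library, and the lowest IMDP library above the highest IMSP library. Of the genes in the sum, Dusp5 alone separated in this way, and Dusp1, Dusp2 and Dusp4 each overlapped between the populations under both treatments. Such a separation held for 9.68% of single tested genes under vehicle and 6.21% under imatinib.

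Dusp6, the cytoplasmic ERK phosphatase (chromosome 10, 99263231 to 99267489), varied less between libraries. It was 10.5, 12.1 and 13.5 RPKM in DP and 11.6, 7.36 and 8.52 in SP libraries, and 10.7, 6.54 and 6.69 in IMDP and 7.16, 5.82 and 6.36 in IMSP libraries. The IMSP libraries lay below all SP libraries, whereas IMDP library 1 reached into the DP range. Its log2 difference was -0.55 (SE 0.15, adjusted p = 0.0992) between treatments and 0.34 (SE 0.15, adjusted p = 0.114) between populations, and neither passed. The G0M+ library was the higher one in 6 of 6 neighbouring pairs, by 0.07 to 0.57 on the log2 scale, as was so for 11.3% of tested genes. The population difference of Dusp6 did pass once the libraries were scaled to their median gene, with a log2 value of 0.50 and an adjusted p of 0.0261 in limma. That scaling raised the tested genes called higher in this comparison from 536 to 1116 of 10072.

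Of the Sprouty genes, whose products inhibit RAS activation downstream of receptors, Spry2 had the narrower spread. Spry2 (chromosome 14, 105891947 to 105896819) was 3.77, 4.76 and 3.45 RPKM in DP and 2.75, 1.75 and 1.59 RPKM in IMDP cells, and these groups did not overlap. It was 2.49, 2.60 and 3.70 RPKM in SP and 1.62, 2.30 and 1.76 RPKM in IMSP cells, which did not overlap either. The log2 difference between treatments was -0.78 (SE 0.17, adjusted p = 0.0549), and between populations it was 0.26 (SE 0.17, adjusted p = 0.268). The treatment difference of Spry2 passed after median scaling (adjusted p = 0.0483 in limma) and without IMDP library 1 (0.0416) or IMSP library 2 (0.0442), and it did not pass in the other fits run. Spry1 (chromosome 3, 37639947 to 37644598) was 1.59, 1.46 and 5.72 RPKM in DP and 3.59, 1.47 and 1.73 in SP libraries, and 2.67, 4.31 and 2.34 in IMDP and 1.73, 2.51 and 1.52 in IMSP libraries. A transcript annotated on the opposite strand, Gm42922, overlaps Spry1. In DP, SP and IMDP cells 1 library stood above the rest of its group, all groups overlapped, and the log2 difference between treatments was 0.09 (SE 0.34, 95% interval -0.65 to 0.82).

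The Spred genes, which encode membrane-bound inhibitors that bring neurofibromin to RAS, gave 1 call between them. Spred2 (chromosome 11, 19924375 to 20024026) was 4.47, 6.47 and 4.98 RPKM in DP and 5.07, 3.62 and 6.46 RPKM in SP cells. It was 2.76, 2.54 and 3.03 RPKM in IMDP and 2.34, 2.05 and 3.19 RPKM in IMSP cells. All 6 imatinib libraries lay below all 6 vehicle libraries, which held for 64 of the 10072 tested genes (0.635%) and for no other member. Between populations its log2 difference was 0.12 (SE 0.16, 95% interval -0.23 to 0.47) and did not pass.

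Averaged over the populations, Spred2, as counted over an effective 33.7 kb, was 1.90-fold lower under imatinib (log2 fold change -0.93, SE 0.16, adjusted p = 0.0342). Its means were 5.31 ± 1.04 (SD, n = 3) for DP and 5.05 ± 1.42 for SP libraries, and 2.77 ± 0.245 in IMDP and 2.53 ± 0.596 in IMSP libraries. Within each population the log2 fold changes were -0.90 (adjusted p = 0.0848) and -0.96 (adjusted p = 0.405) in limma, and neither passed alone. Spred1 (chromosome 2, 117121374 to 117182279) was between 6.55 and 11.5 RPKM in DP and 4.06 and 7.83 in SP libraries, and 7.15 and 10.4 in IMDP and 5.85 and 8.07 in IMSP libraries, and its log2 difference between treatments was 0.07 (SE 0.20, 95% interval -0.36 to 0.50). The difference between Spred1 and Spred2 was not tested.

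Dusp5 was the second member called between treatments. Under imatinib it was 2.33-fold lower on average (log2 fold change -1.22, SE 0.24, adjusted p = 0.0443). No IMDP library reached the lowest DP library and no IMSP library the lowest SP library, with log2 fold changes of -1.31 (adjusted p = 0.0921) and -1.14 (adjusted p = 0.436) in limma. The difference between populations was not detectably altered by imatinib, since the interaction was -0.17 (SE 0.48, 95% interval -1.23 to 0.89, adjusted p = 0.927). No member had an interaction with an adjusted p under 0.05 or with an unadjusted p under 0.05, and of all tested genes 0.0% were called and 9.3% had such an unadjusted p.

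Both treatment calls lay close to the threshold and were lost in several other fits. Neighbouring library numbers, which lie within 1 treatment, deviated together from their group means. With the mean of each such pair as the unit, 3 imatinib pairs against 3 vehicle pairs, the limma adjusted p was 0.376 for Spred2 and 0.393 for Dusp5, and 0 of all tested genes were called, with 966 at an unadjusted p under 0.05. With the replicate number as a block it was 0.0563 and 0.101. Without the filter on low values the adjusted p was 0.0732 for Dusp5 and 0.0557 for Spred2, and on recovered reads with limma-voom it was 0.0701 and 0.0356. Leaving out 1 of the 12 libraries ended the call of Dusp5 in 9 fits (without DP libraries 2 or 3, any IMDP library, IMSP libraries 1 or 3, or SP libraries 1 or 3; adjusted p up to 0.111) and that of Spred2 in 6 (without DP library 2, IMDP libraries 1 or 3, IMSP library 1, or SP libraries 1 or 3; adjusted p up to 0.0862). All of these fits kept the direction.

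Etv5 (chromosome 16, 22381309 to 22439719), the ETS factor, passed in no comparison. It was 2.28, 2.71 and 3.12 RPKM in DP and 3.75, 1.41 and 2.82 in SP libraries, and 5.50, 2.06 and 2.88 in IMDP and 4.10, 2.64 and 2.47 in IMSP libraries. The highest value was that of an imatinib library, all groups overlapped, and the log2 difference between treatments was 0.26 (SE 0.27, 95% interval -0.33 to 0.84, adjusted p = 0.649).

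Across the members, 2 of 10 were called lower under imatinib on average, against 0.606% of tested genes. No member was called in IMDP against DP, in which 0.338% of tested genes were called lower, or in IMSP against SP, in which 0.0% were. At an unadjusted limma p under 0.05, 6 members were lower in IMDP than in DP cells and 5 lower in IMSP than in SP cells, where 17.7% and 2.29% of tested genes were. The groups did not overlap for 4 members in IMDP against DP (Dusp1, Dusp5, Spry2 and Spred2) and for 4 in IMSP against SP (Dusp5, Dusp6, Spry2 and Spred2), against 19.0% and 2.72% of tested genes in that direction. The median log2 fold change of the members was -0.88 in IMDP against DP and -0.54 in IMSP against SP, while that of all tested genes was -0.17 and 0.08. On average over the populations these medians were -0.70 and -0.05. Dusp1, Dusp2, Dusp4, Dusp5, Dusp6, Spry2 and Spred2, 7 of 10, had average treatment differences below 0 (57.6% of tested genes), and Spry1, Spred1 and Etv5 above 0.

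**Figure D3:**
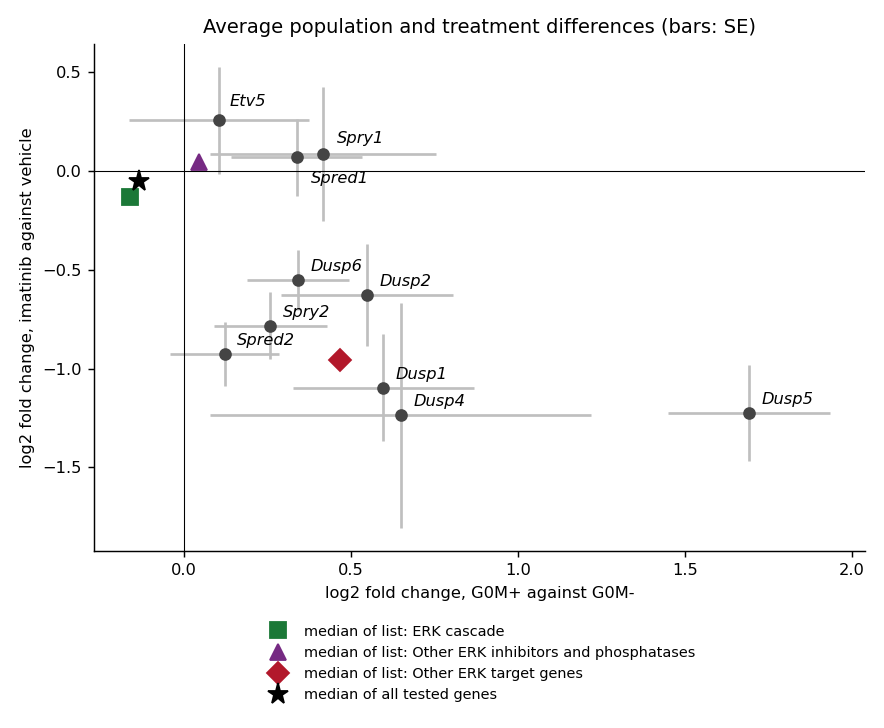
Log2 fold change between G0M+ and G0M- cells averaged over treatments (horizontal axis) against that between imatinib and vehicle averaged over populations (vertical axis), with SE bars, for the 10 genes, and the medians of 3 pathway lists and of all tested genes. Dusp5 stands apart at 1.69 and -1.22, and the median of other ERK target genes lies at 0.47 and -0.96, near Dusp1.

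The same comparisons were read on the rest of the pathway from lists of symbols. The cascade itself, 29 genes from adaptors to ERK and its nuclear partners, had no gene called in DP against SP cells. In IMDP against IMSP cells 8 of the 29 were lower and 0 higher (23.3% of tested genes were called lower), among them Srf, the factor that binds CArG boxes (2.64 ± 0.321 against 4.73 ± 0.642 RPKM, n = 3, log2 fold change -0.81, adjusted p = 0.00978 in limma), the adaptor Shc1 (-0.63, adjusted p = 0.0126) and Hras (-0.90, adjusted p = 0.0203). Averaged over treatments, 5 were lower and 1 higher in G0M+ cells, where 21.0% and 5.32% of tested genes were. Between treatments 1 of 29 was called, against 0.248% of tested genes called higher. This was the ETS factor Elk3, a partner of serum response factor (log2 fold change 0.69, SE 0.11, adjusted p = 0.0197).

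Of 28 other inhibitors and phosphatases of the pathway 20 passed the filter, and none of them was called between treatments, where their median log2 fold change was 0.04. Compared with IMSP cells, 2 were higher and 1 lower in IMDP cells, where 2.37% and 23.3% of tested genes were. Spred3, a further Spred gene, was 1.15 ± 0.198 RPKM in IMDP and 0.431 ± 0.181 RPKM in IMSP cells (n = 3, log2 fold change 1.28, adjusted p = 0.0472 in limma). It reached 1 RPKM only in G0M+ libraries and so entered the test through the groups where it was high. Rasal3, a RAS GTPase-activating protein of blood cells, was 15.6 ± 2.23 and 10.4 ± 1.39 RPKM (log2 fold change 0.59, adjusted p = 0.0247), and the phosphatase subunit Ppp2ca was lower (-0.60, adjusted p = 0.00853). In the average over treatments 3 were higher, Spred3 among them, and 1 lower (5.32% and 21.0% of tested genes).

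Of 25 other genes that ERK is known to induce 21 passed the filter. Their median log2 fold change between treatments was -0.96, 4 were called lower and 0 higher (0.606% and 0.248% of tested genes), and 15 had an unadjusted limma p under 0.05, as did 18.0% of tested genes. The 3 with the smallest adjusted p were Fosb (log2 fold change -1.24, adjusted p = 0.0210), the kinase Plk3 (-1.20, adjusted p = 0.0379) and Fosl1 (adjusted p = 0.0395). Fosl1 was 1.42 ± 0.381 RPKM (SD, n = 3) for DP and listed at 0 in all IMSP libraries, with means of 0.633 for SP and 0.152 for IMDP. It is counted among those called, but it reached 1 RPKM only in vehicle libraries. Fosl1 thus entered the test through the groups where it was high. Over all tested genes the median between treatments was -0.05. Between populations the median of these targets was 0.47. Of the 21, 2 were called higher in G0M+ cells, Fosb (0.75, adjusted p = 0.0182) and Plk3 (0.98, adjusted p = 0.00969). The chromatin protein Hmga1 was the 1 called lower (-0.62, adjusted p = 0.0141). Over all tested genes 5.32% were called higher and 21.0% lower.

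Genes whose centred log2 values over the 12 libraries lay closest to those of Dusp1 were Fosb, Fos and Ppp1r15a, at a mean absolute difference of 0.23, 0.23 and 0.24. For Dusp5 they were Rgs1, Ctla2a and Smim3, each at 0.38. Rgs1, a regulator of G protein signaling, averaged 104 ± 22.2 RPKM (SD, n = 3) for DP and 51.8 ± 27.2 for SP libraries, and 67.3 ± 2.94 in IMDP and 28.9 ± 17.9 in IMSP libraries. The search covered 10062 genes, and this likeness is a description of these libraries.

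Several measures moved with the members. A list of 17 immediate-early genes known to rise while tissue is dissociated and sorted, 6 of which are also among the other ERK targets, summed to 581 to 892 RPKM in DP and 322 to 699 in SP libraries, and 239 to 369 in IMDP and 126 to 381 in IMSP libraries. Of these 17, 5 were called lower under imatinib and 0 higher (0.606% and 0.248% of tested genes), 16 had an unadjusted limma p under 0.05 (18.0%), and their median log2 fold change was -1.25. Hspa1b, a heat shock chaperone, was among them at -4.14 (adjusted p = 0.0197). The part of this list in the treatment differences of Dusp1, Dusp5 and Spred2 was not tested.

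Markers of other cell types were summed in the same way. The 11 mast cell and basophil markers summed to 91.0 to 412 RPKM in DP and 18.1 to 47.1 in SP libraries, and 22.3 to 216 in IMDP and 9.10 to 31.4 in IMSP libraries, with the mast cell proteases Cma1, Mcpt4 and Tpsb2 listed at 0 in all SP and IMSP libraries. Some G0M+ libraries also listed these proteases at 0, namely DP2, DP3, IMDP2 and IMDP3 for Tpsb2, DP3, IMDP2 and IMDP3 for Mcpt4, and IMDP3 for Cma1. Mcpt8, Cpa3, Ms4a2, Hdc and Gzmb of the same list were above 0 in every library of all groups. The 11 macrophage markers summed to 8.47 to 20.3 RPKM in DP and 2.06 to 6.12 in SP libraries, and 18.0 to 20.5 in IMDP and 4.26 to 31.4 in IMSP libraries, with C1qa, C1qb, C1qc and Cd5l listed at 0 in all SP and IMSP libraries. Csf1r, of the same list, was above 0 in every library and made up most of the highest IMSP sum (28.7 RPKM in IMSP library 3). The 10 neutrophil markers summed to 51.3 to 1176 RPKM in DP and 317 to 2200 in SP libraries, and 61.1 to 232 in IMDP and 421 to 1784 in IMSP libraries. The 10 erythroid markers reached 208 to 269 RPKM in DP and 55.3 to 148 in SP, and 58.5 to 484 in IMDP and 10.7 to 74.3 in IMSP cells, and the 8 megakaryocyte markers 30.2 to 130 RPKM in DP and 12.6 to 48.5 in SP libraries, and 19.2 to 118 in IMDP and 7.74 to 58.8 in IMSP libraries. The 8 B cell markers summed to between 1.76 and 4.35 RPKM over all libraries, with Ms4a1, Pax5 and Ighm listed at 0 in each. The 9 T and NK cell markers summed to 83.1 to 181 RPKM in DP and 91.5 to 265 in SP libraries, and 26.5 to 84.7 in IMDP and 60.9 to 165 in IMSP libraries. Nkg7 made up most of that sum in every library, whereas Trac and Trbc2 were listed at 0 in all of them. The 12 proliferation genes summed to 41.2 to 112 RPKM in DP and 313 to 340 in SP, and to 25.2 to 50.4 in IMDP and 297 to 413 in IMSP cells. The part of these markers in the population difference of Dusp5 was not tested.

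**Figure D4:**
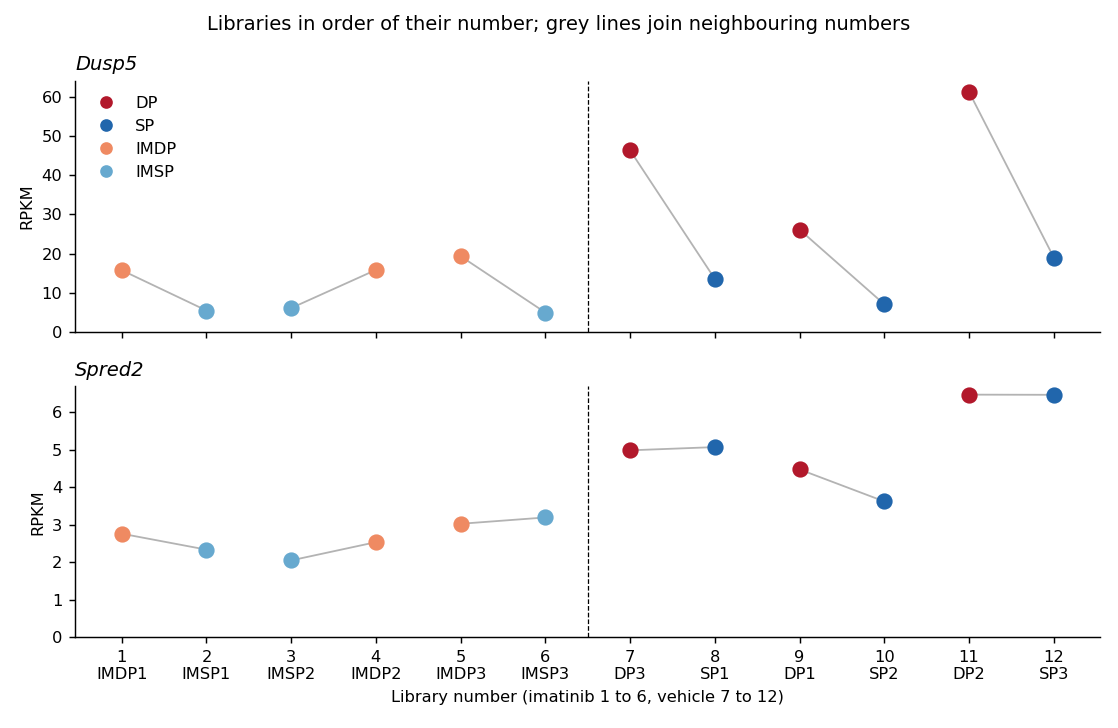
RPKM of Dusp5 and Spred2 (vertical axes, starting at 0) in the 12 libraries in order of their number (horizontal axis), with grey lines between neighbouring numbers and a dashed line between imatinib (1 to 6) and vehicle (7 to 12). Dusp5 is higher in the G0M+ library of all 6 neighbouring pairs, and every Spred2 value left of the dashed line is at most 3.19 RPKM, below the lowest value right of it, 3.62 RPKM.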

How the data were processed

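Each of the 12 libraries was made from 100 sorted cells with random primers and a Nextera XT kit, which does not keep the strand. The authors mapped the reads to GRCm38 (mm10) and deposited RPKM values for 48737 features per library. Their methods name CLC Genomics Workbench and their reporting summary HISAT2 and featureCounts, and the authors ran their statistics in edgeR. Whether a further normalization entered the deposited RPKM is not given in the sources used here.

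Numbered copies of a gene were summed. Reads were recovered from the RPKM steps, to within 0.01 of a whole number in all 12 libraries for 99.98% of the 17735 features with any value above 0. A gene entered the test if 3 or more libraries reached 1 RPKM. The test was that of limma (3.58.1, under R 4.3.3) on log2(RPKM + 0.1), fitting the 4 groups with a variance trend and Benjamini-Hochberg adjusted p values at a threshold of 0.05. Scripts were tested on simulated data. In simulated DP against SP libraries with a dispersion of 0.1, limma called 11.1% of genes changed 2-fold and 98% of those changed 4-fold. A member that did not pass is thus not shown to be unchanged. False calls made up 4.39% of the simulated calls. The simulated libraries did not deviate together as neighbouring library numbers did here, so this share does not cover the treatment calls. Intervals cover the spread between libraries only, and PCR copies are not marked. Positions came from GENCODE M21 and promoters from RefSeq (GRCm38.p6). Figures used Python 3.11.15 and matplotlib 3.10.9.

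The members, the pathway and marker lists and the tests were chosen with earlier results of these data known. Named genes are the members, up to 3 called genes with the smallest adjusted p per pathway list and comparison, the 3 nearest genes of the 2 members with the highest mean, and label checks. Alternatives changed the pseudocount (1 and 0.01), the filter (none, 0.1 RPKM), the scaling (median gene), the test (limma-voom on recovered reads), the groups fitted and the libraries, or added a block. Means of neighbouring library-number pairs as units were chosen after seeing the data. Same-numbered replicates of IMDP and IMSP cells deviated together, at 0.43, 0.65 and 0.46 (Pearson's r across genes, which are not independent), and these are also neighbouring library numbers. Those of DP and SP cells did not, at -0.19, -0.30 and -0.10. For IMDP and DP the values were 0.20, 0.09 and 0.10, and for IMSP and SP -0.23, -0.40 and -0.26. Neighbouring library numbers of DP and SP gave 0.50, 0.51 and 0.52.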

Additional observations from a re-analysis of the deposited data

How the results depend on the processing

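Dusp5 kept its direction and its call in IMDP against IMSP cells and in the population average under every alternative run. In DP against SP cells 0 members were called with those groups fitted alone and 2 with library-number pairs as a block (Dusp2 and Dusp5), and 0 to 1 with 1 library left out. Of 10072 tested genes, 29 were called higher in the main fit and 25 with the groups alone. With the block 420 were, and with 1 library left out 8 to 25. In IMDP against IMSP cells 3 were called with that block and 1 without any single library. There 828 tested genes were called higher with the block and 50 to 513 with 1 library left out, against 239 in the main fit. In IMDP against DP cells 0 to 1 were called with 1 library left out (Spry2, without IMDP library 1). Without that library 187 tested genes were called lower, against 34 in the main fit. In the population average 2 were called after median scaling, 2 with limma-voom, 2 with the replicate block and 7 with library-number pairs, and 1 to 2 with 1 library left out. Called higher of all tested genes were 1116, 1196, 674 and 1353 in the same order, against 536 in the main fit. With 1 library left out they were 267 to 854. In the treatment average 0 were called without the filter, 1 with limma-voom, 0 with the replicate block, 0 with the means of library-number pairs (an alternative chosen after seeing the data) and 3 after median scaling (Dusp5, Spred2 and Spry2), and 0 to 3 with 1 library left out. Called lower of all tested genes were 33, 74, 15, 0 and 97 in the same order, against 61 in the main fit. With 1 library left out they were 11 to 116. The cause of these changes was not tested. The replicate block, which pairs IMDP with IMSP libraries, changed no call of a member between them. Several values near 0 turned. Spred1 in IMDP against DP cells turned to 0.0861 after median scaling and 0.0859 with limma-voom (log2). The interaction of Etv5 turned to 0.0222 with a pseudocount of 1, 0.21 after median scaling and 0.19 with limma-voom, that of Dusp5 to 0.0639 and 0.0626, and that of Dusp6 to 0.0915 and 0.096 under the last pair of settings. With 1 library left out, log2 values in DP against SP cells spanned -0.26 to 1.28 for Dusp4, -0.12 to 0.29 for Spred2, -0.43 to 0.55 for Spry1 and -0.27 to 0.40 for Etv5. In IMDP against IMSP cells they spanned -0.15 to 0.22 for Spry2 and -0.29 to 0.40 for Etv5, in IMDP against DP cells -0.0143 to 0.94 for Spry1, -0.26 to 0.14 for Spred1 and -0.13 to 0.56 for Etv5, and in IMSP against SP cells -0.39 to 0.22 for Spry1, -0.10 to 0.37 for Spred1 and -0.12 to 0.56 for Etv5. On average they spanned -0.0871 to 0.26 for Etv5 between populations, and -0.0821 to 0.39 for Spry1 and -0.0819 to 0.17 for Spred1 between treatments. Interactions spanned -0.41 to 1.13 for Dusp4, -0.14 to 0.27 for Spred2, -0.15 to 0.55 for Dusp1, -0.51 to 0.22 for Dusp5, -0.40 to 0.37 for Etv5, -0.37 to 0.0018 for Dusp6 and -0.47 to 0.0349 for Spred1.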
